A study of Homo sapiens with 4 samples.

Results

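The genes described here are MAP3K5, which encodes the stress kinase ASK1, its paralog MAP3K6, and 7 genes whose proteins bind or regulate ASK1. They were chosen by symbol, by a rule that used no measured value, although earlier results of these data were known, and comprise 9 of the 25798 gene IDs in the deposited tables. Each symbol matched 1 ID, and all 9 passed the filter on low counts. RNA sequencing was done on SW1990, an established human pancreatic cancer cell line labelled as WT, in 2 libraries of cells given 100 nM erianin for 48 h and 2 libraries of cells given DMSO, the solvent, for 48 h. Erianin is a natural product of Dendrobium orchids that disrupts microtubules, and the title of the study names AKT and ASK1. The cells of both groups carry no further label of treatment or genotype, and a single line was used.

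ASK1 is a MAP kinase kinase kinase: it phosphorylates MAP kinase kinases, which in turn activate JNK and p38. Reduced thioredoxin binds ASK1 and holds it inactive, and oxidation of thioredoxin releases it. TRAF2 and TRAF6 are adaptors that bind the released kinase and help it form an active complex, DAXX is an adaptor that binds and activates it, and the phosphatases PP5 and PGAM5 act on it. These controls work on the protein, whereas the data are transcript levels.

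Summed over all genes, the counts were 63336545 and 59923935 in erianin replicates 1 and 2, against 63254725 and 60798427 in DMSO replicates 1 and 2. All 6 epithelial markers were detected, with summed levels of 13060 and 14950 CPM (counts scaled to library size) in erianin and 12160 and 12470 CPM in DMSO, of which EPCAM made up no more than 6.05 CPM in any library. Of 12 markers of other cell types, 10 had an entry, summing to 211.3 and 254.2 CPM in erianin and 227.1 and 208.1 CPM in DMSO, of which CD68 made up 204.1 and 244.1 CPM in erianin and 192.6 and 198.4 CPM in DMSO. The fibroblast genes COL3A1 and DCN stood at 8.83 and 6.03 CPM in DMSO replicate 1 and at no more than 0.353 CPM in any other library, DCN being at 0 in both erianin libraries. COL1A1 was present throughout, at 2.92 and 3.42 CPM in erianin replicates 1 and 2, against 9.27 and 3.22 CPM in DMSO replicates 1 and 2. In the same order, COL1A2 had 3.5 and 4.79 against 7.36 and 4.54 CPM, and LUM 0.11 and 0.432 against 1.82 and 0.577 CPM. The part of these fibroblast genes in the results was not tested. In bulk RNA, fewer cells of a type and less RNA per cell cannot be told apart.

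None of the 9 genes passed the test between erianin and DMSO. That test was edgeR's quasi-likelihood test over all 17090 genes, and a gene passed where its p, adjusted by the Benjamini-Hochberg method, was under 0.05. It called 0.041% of all genes (7 genes), 0.0117% as higher and 0.0293% as lower in erianin. At an unadjusted p under 0.05 there were 0 of the 9, where 8.1% of all genes tested had one. DESeq2 and limma-voom also called 0 of the 9. They called only 0.123% and 0% of all genes tested, so this adds little about the 9. The log2 fold change was above 0 for 7 genes and below 0 for MAP3K5 and TRAF6. The median of the 9 was 0.09, against -0.01 over all genes tested. In CPM, both erianin libraries lay above both DMSO libraries for TXN2, TRAF2, DAXX and PGAM5, 4 of the 9, and below them for 0. The shares over all genes tested were 21.7% and 24.4%. In FPKM, the deposited values per length and depth, TXN2, TRAF2 and PPP5C lay above, while DAXX and PGAM5 overlapped. MAP3K6 lay below in FPKM (2.61 and 2.63, against 2.84 and 3.1), as did TRAF6 (0.31 and 0.25, against 0.32 and 0.35). No share over all genes was obtained in FPKM, so whether these separations are more than usual cannot be told. In CPM the groups did not overlap for 46.1% of all genes tested, counting both directions. For a single gene, 2 libraries against 2 cannot give an exact two-sided permutation p below 0.333.

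**Figure D1:**
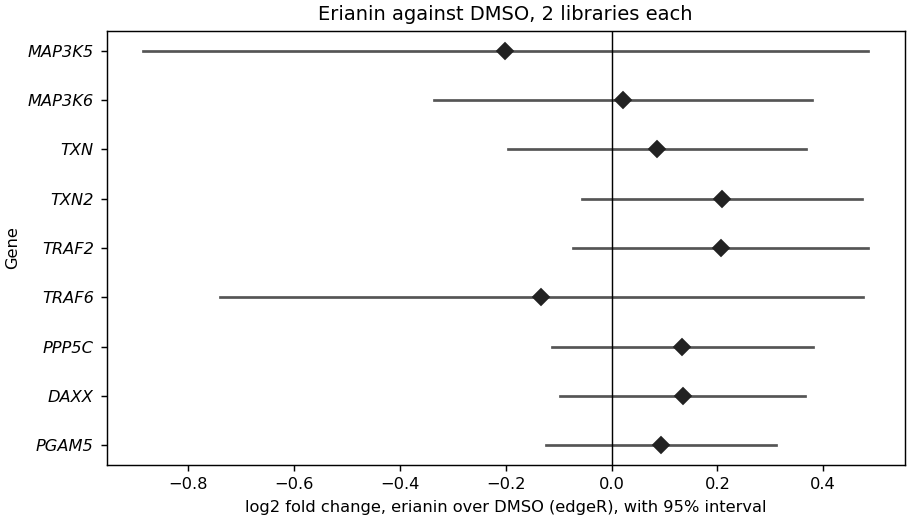
Log2 fold change of erianin over DMSO for the 9 genes (diamonds, edgeR) with 95% intervals (lines), 2 libraries per group. Every interval includes 0, and the widest are those of MAP3K5 and TRAF6, the genes with the lowest counts.

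MAP3K5 (ENSG00000197442, GRCh38 chromosome 6, 136557047 to 136792518, minus strand) had 454 and 238 counts in the erianin libraries, against 511 and 336 counts in the DMSO libraries. These were 7.13 and 4.28 CPM in erianin replicates 1 and 2, against 7.74 and 5.38 CPM in DMSO replicates 1 and 2. The groups overlapped, and in each group replicate 1 was the higher library. The mean was 5.71 CPM ± 2.01 in erianin and 6.56 CPM ± 1.67 in DMSO (SD, n = 2 each), with a log2 fold change of -0.20 ± 0.30 (SE) and an adjusted p of 0.816 from edgeR. The 95% interval ran from -0.89 to 0.48, so a level in erianin between 0.541 and 1.4 times that in DMSO was compatible with these libraries. The sign rested on single libraries, since the log2 fold change was 0.08 without DMSO replicate 1 and 0.12 without erianin replicate 2, against -0.44 without DMSO replicate 2 and -0.63 without erianin replicate 1.

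The paralog MAP3K6 encodes ASK2, a kinase that forms complexes with ASK1. MAP3K6 (ENSG00000142733, chromosome 1, 27355184 to 27366892, minus strand) had 12.7 and 13.9 CPM in erianin, against 13.4 and 12.8 CPM in DMSO. The values of the groups were interleaved. Its log2 fold change was 0.02 ± 0.15 (SE), with a 95% interval from -0.34 to 0.38, and it was -0.08 with library totals alone as the scaling. The transcripts of the 2 kinases share little exact sequence. The longest run of identical letters between any annotated MAP3K5 and MAP3K6 transcript was 21 bases, which bears on whether reads of one gene could be counted for the other. With 20 bases on each side, that run lies in coding sequence. The stretch covers parts of exons 15 and 16 of transcript MAP3K5-201 and of exons 14 and 15 of MAP3K6-202. It is shown 5′ to 3′ with the run in capitals (GENCODE 29 transcripts).
MAP3K5: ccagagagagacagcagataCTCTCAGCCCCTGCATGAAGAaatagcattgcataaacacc
MAP3K6: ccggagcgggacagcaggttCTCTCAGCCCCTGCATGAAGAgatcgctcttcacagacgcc
The stretches span chr6:136614243-136622864 and chr1:27360325-27360721 on the minus strand, introns included. For TXN and TXN2 the longest shared run was 10 bases, and for TRAF2 and TRAF6 it was 19 bases.

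Thioredoxin is the inhibitor of ASK1 in the cytosol and thioredoxin 2 its counterpart in mitochondria. TXN (ENSG00000136810, chromosome 9, 110243811 to 110256640, minus strand) had 169.9 and 213.9 CPM in erianin replicates 1 and 2, against 183.7 and 178 CPM in DMSO replicates 1 and 2. The erianin libraries lay on either side of the DMSO libraries. The mean was 191.9 CPM ± 31.1 in erianin and 180.8 CPM ± 4.03 in DMSO (SD, n = 2 each), with a log2 fold change of 0.09 ± 0.12 (SE). It was -0.02 with library totals alone and -0.09 without erianin replicate 2. Without erianin replicate 1, where erianin replicate 2 stands alone for its group, it was 0.23 and passed (edgeR, adjusted p = 0.0297), in a fit that called 17.5% of all genes (3166 genes).

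TXN2 (ENSG00000100348, chromosome 22, 36467036 to 36482030, minus strand) had the highest log2 fold change of the 9. Its levels were 162.6 and 198.1 CPM in erianin, against 153.9 and 158.2 CPM in DMSO. Both erianin libraries were the higher ones, replicate 1 by little. The mean of 180.4 CPM ± 25.1 in erianin stood against 156.1 CPM ± 3.03 in DMSO (SD, n = 2 each). The log2 fold change was 0.21 ± 0.11 (SE), with an adjusted p of 0.577 (edgeR). Without erianin replicate 2 it was 0.06, with library totals alone it was 0.10, and without erianin replicate 1 it was 0.33 and passed (edgeR, adjusted p = 0.0107). In FPKM, the deposited values per length and depth, the libraries had 117.5 and 127.8 in erianin, against 116.2 and 117.5 in DMSO.

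Among the adaptors, TRAF2 (ENSG00000127191, chromosome 9, 136881912 to 136926607, plus strand), which links TNF receptors to ASK1, had 52.7 and 59.3 CPM in erianin, against 46.7 and 50.3 CPM in DMSO. The groups did not overlap, and the gap between them was narrower than the distance between the libraries of either group. Its log2 fold change was 0.21 ± 0.12 (SE), with a 95% interval from -0.07 to 0.49 and an adjusted p of 0.586 (edgeR). TRAF6 (ENSG00000175104, chromosome 11, 36487027 to 36510272, minus strand), which acts for interleukin-1 and Toll-like receptors, was the scarcest of the 9, with 181 and 140 counts in erianin and 185 and 192 counts in DMSO. These were 2.84 and 2.52 CPM in erianin, against 2.8 and 3.08 CPM in DMSO, and the groups overlapped. The log2 fold change of TRAF6 was -0.13 ± 0.26 (SE). DAXX (ENSG00000204209, chromosome 6, 33318558 to 33323016, minus strand), which links the FAS receptor to ASK1 and is also a histone chaperone, had 80.2 and 76.9 CPM in erianin, against 72 and 71.2 CPM in DMSO. Both erianin libraries were above both DMSO libraries, with a log2 fold change of 0.13 ± 0.10 (SE), an adjusted p of 0.638 (edgeR) and 0.04 with library totals alone. In FPKM the groups overlapped, at 28.1 and 24 in erianin and 24.9 and 24.6 in DMSO.

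The phosphatase genes were abundant. PPP5C (ENSG00000011485, chromosome 19, 46346994 to 46392981, plus strand) encodes PP5, which dephosphorylates active ASK1. It had 175.2 and 200.3 CPM in erianin, against 162.8 and 179.5 CPM in DMSO. In both groups replicate 2 was higher, and the groups overlapped. The mean was 187.8 CPM ± 17.8 in erianin and 171.1 CPM ± 11.8 in DMSO (SD, n = 2 each), with a log2 fold change of 0.13 ± 0.11 (SE). PGAM5 (ENSG00000247077, chromosome 12, 132710819 to 132722734, plus strand) encodes a mitochondrial phosphatase that activates ASK1. It had 119 and 126 CPM in erianin, against 113.3 and 116.2 CPM in DMSO. Both erianin libraries were higher, with the log2 fold change at 0.09 ± 0.09 (SE) and at -0.01 with library totals alone. Its 95% interval, from -0.12 to 0.31, was the narrowest of the 9.

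The 9 genes differed far more from each other than between treatments. On the FPKM scale, which is per length, the order by mean level was TXN, TXN2, PPP5C, PGAM5, DAXX, TRAF2, MAP3K6, MAP3K5 and TRAF6. All 8 pairs of neighbours in this order were separate, the lowest of the 4 libraries for one gene being above the highest for the next. With CPM per 1000 bases of the longest GENCODE 29 transcript in place of FPKM, PGAM5 came before PPP5C. TXN had 201.7 and 229 FPKM in erianin, against 222.3 and 214.5 FPKM in DMSO, and stood above 97.7% of genes tested. MAP3K5 had 1.13 and 0.61 FPKM in erianin, against 1.25 and 0.86 FPKM in DMSO, and stood above 37.9% of them. The FPKM of TXN was 178 and 375 times that of MAP3K5 in erianin replicates 1 and 2, against 178 and 249 times in DMSO replicates 1 and 2. MAP3K6 exceeded MAP3K5 by 2.31 and 4.31 times in erianin and by 2.27 and 3.6 times in DMSO. TRAF2 exceeded TRAF6 by 67.4 and 87.3 times in erianin and by 58.7 and 58.3 times in DMSO. For TRAF6 the deposited values imply a transcript of about 7892 bases, longer than the 4627 bases of its longest GENCODE 29 transcript, and with that length too TRAF6 was the lowest of the 9.

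**Figure D2:**
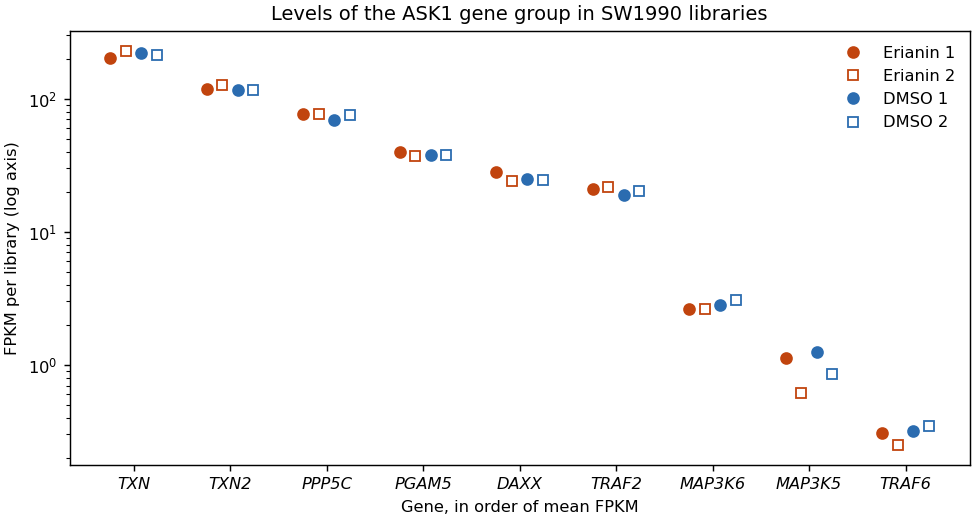
FPKM of the 9 genes in each library on a log axis (erianin replicates in orange, DMSO replicates in blue, filled circles for replicate 1 and open squares for replicate 2). The genes separate in every library, from TXN above 200 FPKM to TRAF6 at 0.35 FPKM or less.

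Among 21 kinase genes at the MAP3K level, MAP3K6 was the sixth and MAP3K5 the thirteenth by mean FPKM. MAP3K11, which encodes the mixed-lineage kinase MLK3, was the highest, with 41.5 and 42.7 FPKM in erianin and 41 and 39.7 FPKM in DMSO. The neighbours of MAP3K6 in this order, MAP3K3 and MAP3K20, overlapped it, as MAP3K12 and MAP3K9 did MAP3K5. MAP3K15, which encodes ASK3, the remaining member of the ASK family, had between 0.01 and 0.11 FPKM.

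**Figure D3:**
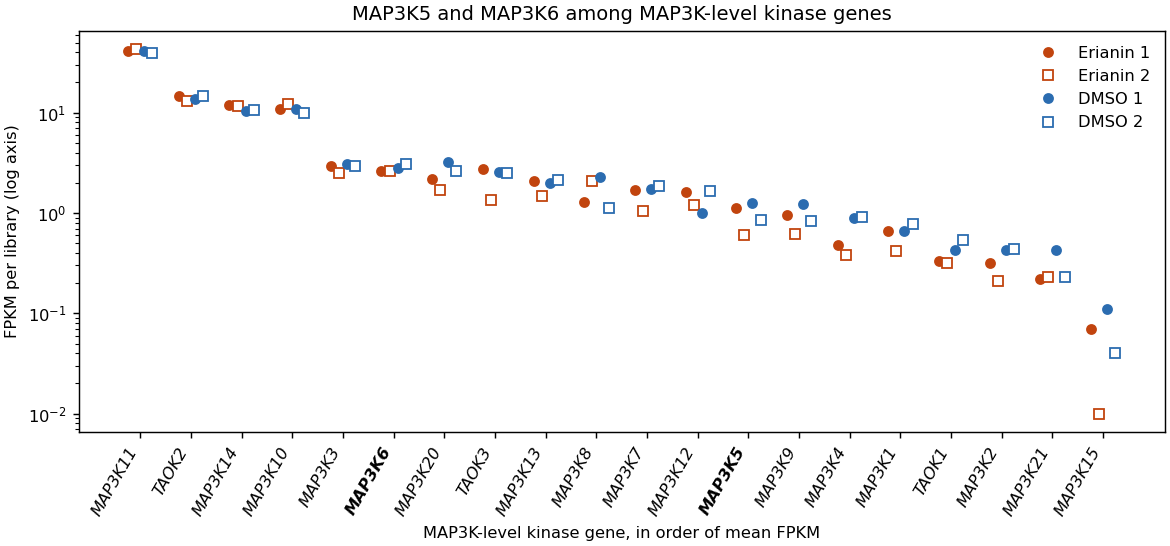
FPKM in each library (log axis) of the 20 MAP3K-level kinase genes that passed the filter on low counts, in order of mean level, erianin in orange and DMSO in blue. MAP3K6 and MAP3K5, in bold, lie in a long run of neighbours that overlap.

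The genes whose pattern over the 4 libraries was most like that of MAP3K5 were EIF4ENIF1, RIPK1 and SPIRE1, out of 7640 genes whose log2 CPM averaged at least 3. Likeness was the root mean square difference of log2 CPM after each gene was centred on its mean, which was 0.03, 0.06 and 0.06. With 4 libraries this is a description only. RIPK1, the kinase of the TNF receptor complex, had 12.4 and 7.97 CPM in erianin, against 14 and 10.5 CPM in DMSO, so replicate 1 was higher in both groups, as for MAP3K5.

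Except for TRAF6, each gene total of the 9 is the sum of several rows of the deposited table, which carry no transcript names. The split between rows differed widely between libraries for some of the 9. Count, FPKM and library total together imply the length of the transcript behind a row. Within 0.5%, no GENCODE 29 transcript length fits the leading rows of MAP3K5, TXN, TXN2, PGAM5 and TRAF6. The same holds for those of MAP3K6 in DMSO and of PPP5C outside erianin replicate 1, so these rows cannot be assigned to a transcript. MAP3K6 had 8 rows, and 3 different ones led across the 4 libraries. The row of 4309 bases had 712 and 455 counts in erianin replicates 1 and 2, which were 88.1% and 58.7% of the gene, and 0 counts in both DMSO libraries, where a count of 0 allows up to 0.338% and 0.376%. The row of 4442 bases had 66 and 213 counts in erianin, against 710 and 50 counts in DMSO. The row of 3664 bases had 0 and 101 counts in erianin, against 172 and 743 counts in DMSO. The leading row was thus that of 4309 bases in both erianin libraries, that of 4442 bases in DMSO replicate 1 and that of 3664 bases in DMSO replicate 2. The gene totals stayed close, at 808 and 775 counts in erianin and 887 and 798 counts in DMSO. In the whole table, of 23704 rows with at least 100 counts in 2 or more libraries, 0.591% had at least 100 counts in both erianin libraries and 0 in both DMSO libraries, and 0.747% the opposite. The threshold of 100 counts was chosen after the values had been seen, and such limits cover counting error only. Both MAP3K6-202 and MAP3K6-206 in GENCODE 29 are 4309 bases long, so the row cannot be assigned to one of them. Besides differences nearer their ends, MAP3K6-206 has 24 coding bases in exon 4 that MAP3K6-202 lacks (chr1:27364661-27364684, minus strand), shown in capitals with 20 bases on each side.
MAP3K6-206: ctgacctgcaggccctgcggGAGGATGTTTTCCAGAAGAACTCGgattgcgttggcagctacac

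PPP5C had 15 rows and showed the other wide shift. Its row of 2139 bases held 38.6% and 71.6% of the counts in erianin replicates 1 and 2, against 89% and 94.8% in DMSO replicates 1 and 2. The row of 1929 bases had 6305 and 1399 counts in erianin, against 404 and 224 counts in DMSO, or 56.5% and 12.6% against 3.8% and 2% of the gene. Both erianin libraries were higher for this row, and the distance between them was wider than that from erianin replicate 2 down to either DMSO library. A length of 1929 bases is that of transcript PPP5C-202 in GENCODE 29 and of no other annotated transcript of the gene within 0.5%. The row of 2139 bases fits none, so the exon shown next cannot be taken as the difference between these rows. PPP5C-201 is shown only as the lowest-numbered transcript of the gene. PPP5C-202 lacks exon 5 of PPP5C-201, a coding exon of 66 bases (chr19:46383411-46383476, plus strand), shown in capitals between 20 bases of the neighbouring exons, above the same place in PPP5C-202.
PPP5C-201: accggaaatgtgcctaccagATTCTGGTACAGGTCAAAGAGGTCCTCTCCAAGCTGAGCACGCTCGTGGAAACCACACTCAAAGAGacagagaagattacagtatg
PPP5C-202: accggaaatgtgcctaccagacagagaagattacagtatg
A row of 1886 bases, the length of PPP5C-205, a transcript annotated for nonsense-mediated decay, had 405 and 1562 counts in erianin, against 664 and 305 counts in DMSO. The gene total did not follow these shifts, at 11158 and 11132 counts in erianin and 10745 and 11198 counts in DMSO.

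DAXX had a smaller shift of this kind. A row of 2466 bases had 1085 counts in erianin replicate 1 and 0 in erianin replicate 2, against 154 and 62 counts in DMSO replicates 1 and 2, while the row of 2606 bases held 67.4% and 79.9% in erianin and 77.3% and 72.7% in DMSO. In TXN2 a row of 1336 bases led throughout, with 67% and 63.3% in erianin and 66.3% and 62.3% in DMSO. MAP3K5, TXN, TRAF2 and PGAM5 had at least 94.7% of their counts in 1 row in each library, and TRAF6 had a single row. No test was made on single rows, because the rule that assigned reads fitting several transcripts to one of them is not given in the sources used here.

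**Figure D4:**
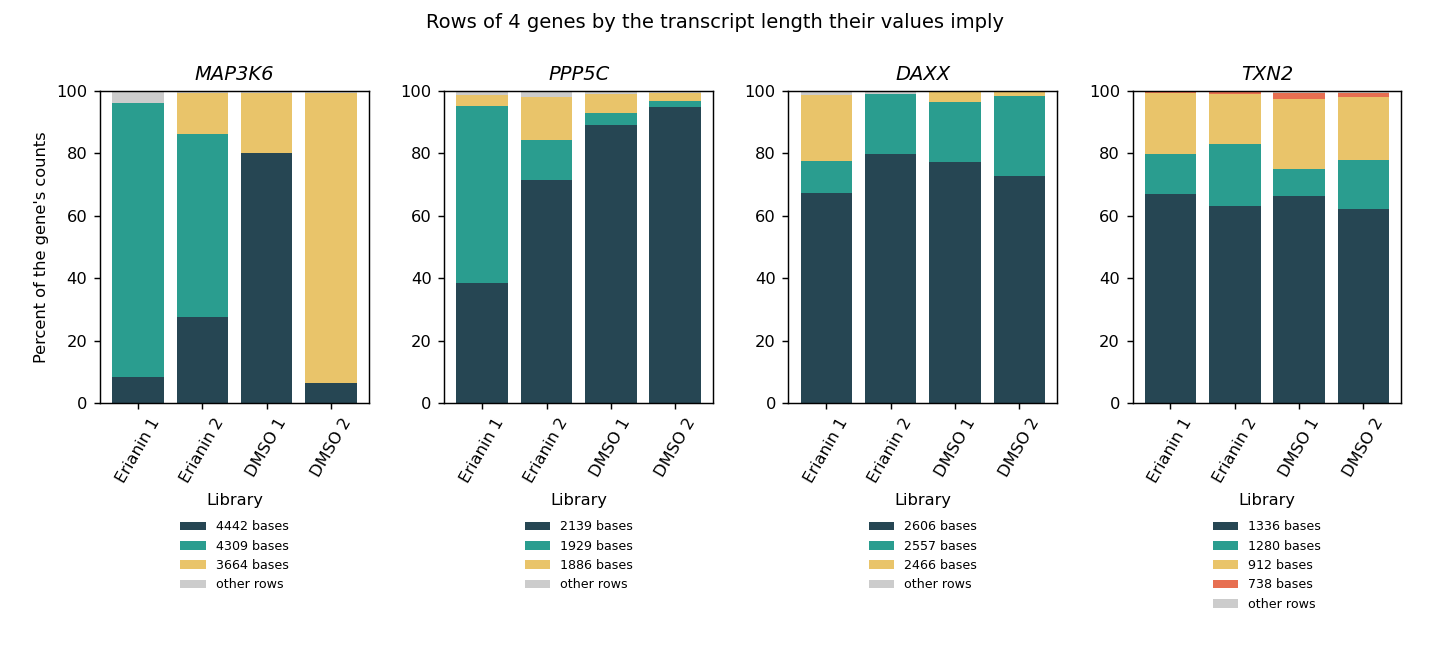
Percent of each gene's counts in its rows, per library, for MAP3K6, PPP5C, DAXX and TXN2, with rows labelled by the transcript length that their values imply. The leading row of MAP3K6 differs between the DMSO libraries, and the row of 1929 bases of PPP5C is large in erianin replicate 1 and small in the other libraries.

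Near copies elsewhere in the genome held few counts. TRAF6P1, a pseudogene with 1567 bases at 95.5% identity to TRAF6, had 10 and 0 counts in erianin and 0 in both DMSO libraries. PPP5D1, with 399 bases at 95.5% identity to PPP5C, had 17 and 51 counts in erianin, against 44 and 39 counts in DMSO. MAP3K5, PPP5C, DAXX, PGAM5 and TRAF2 overlap another annotated gene, and no overlapping gene with an entry in the table exceeded 14 counts in a library. AL662820.1, a protein-coding gene on the strand of DAXX, overlaps it by 1631 bases, with 444 transcript bases at 100% identity. It had no entry, so its counts are unknown. The same holds for AC007193.1, opposite PPP5C with 415 bases at 100% identity, and for AL024508.1, opposite MAP3K5.

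Among genes whose log2 CPM averaged at least 3, the fold change moved with GC content, the share of G and C in the longest transcript. The slope was 0.18 log2 units per 10 percentage points (Spearman's rho of 0.665 across 7968 genes, a description, since genes are not independent). Between the erianin libraries alone, replicate 2 over replicate 1, it was 0.19, and between the DMSO libraries 0.043. Over genes of that level, erianin replicate 1 was more like DMSO replicates 1 and 2 (Spearman's rho of 0.9901 and 0.9918) than like erianin replicate 2 (0.9825). Erianin replicate 2 was at 0.9689 and 0.9751 with DMSO replicates 1 and 2, which were at 0.9929 with each other. The genes with both erianin libraries above DMSO in CPM had GC contents of 61.3% (TRAF2), 56.2% (TXN2), 54.8% (DAXX) and 54.8% (PGAM5). Among those of the 7968 genes within 1 percentage point of each, 62.7%, 48.1%, 40.4% and 40.3% also had both erianin libraries above both DMSO libraries. The 21.7% given earlier was over all genes tested instead. MAP3K5, at 46.1% GC and a log2 fold change of -0.20, had neighbours in GC content with a median of -0.15. MAP3K5 and TRAF6 averaged below a log2 CPM of 3, so their neighbours and their fitted trend come from more abundant genes. TXN stood higher than most genes of its GC content, its log2 fold change of 0.09 being above that of 87.6% of the genes within 1 percentage point of 42.8%. MAP3K6 stood lower, its 0.02 being above only 6.37% of the genes near 63.5%. The other 7 stood above between 41% and 79% of the genes near their own GC content. With each library's trend in GC content and length removed, the log2 fold changes were -0.03 for MAP3K5, -0.11 for MAP3K6, 0.20 for TXN, 0.04 for TXN2, 0.02 for TRAF2, 0.13 for TRAF6, 0.09 for PPP5C, 0.03 for DAXX and -0.01 for PGAM5. None passed (edgeR, smallest adjusted p = 0.74).

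**Figure D5:**
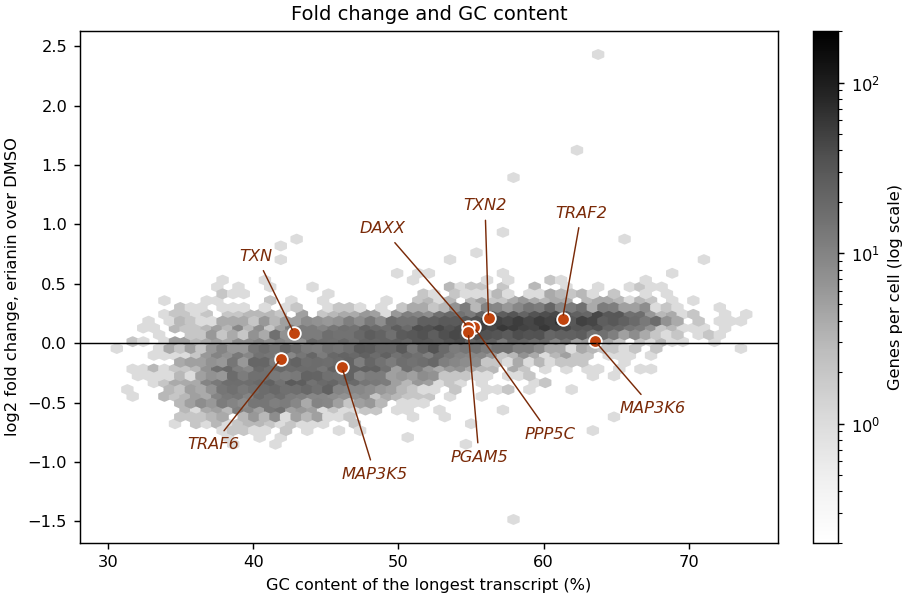
Log2 fold change of erianin over DMSO against GC content of the longest transcript for genes whose log2 CPM averaged at least 3 (grey cells, darker with more genes), with the 9 genes as orange points. MAP3K5 and TRAF6 averaged below that level. TXN lies above and MAP3K6 below the bulk of genes with like GC content, and the others lie within it.

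Other genes of the pathway were taken from 6 lists of 72 genes in all, of which 70 were tested and 0 passed. Of these, 10 had an unadjusted p under 0.05, 1 (MAP3K14) with a higher and 9 with a lower level in erianin, where 8.1% of all genes tested had one (2.21% higher and 5.89% lower). The median log2 fold change of the 70 was -0.11. From each list up to 3 genes with the smallest p are named, and all had an adjusted p of at least 0.575 (edgeR). Upstream of ASK1, 15 genes of receptors and adaptors had a median of 0.00. TNFRSF1A, the main TNF receptor, had 440.7 and 477.3 CPM in erianin, against 399.2 and 418.1 CPM in DMSO, a log2 fold change of 0.17 ± 0.09 (SE). TNFRSF1B, the other TNF receptor, was at 0.17 ± 0.10 and TRAF1, a partner of TRAF2, at 0.77 ± 0.36, on 1.95 and 3.19 CPM in erianin against 1.7 and 1.31 CPM in DMSO. With the GC and length trend removed, TNFRSF1A was at 0.01, TNFRSF1B at 0.04 and TRAF1 at 0.77, and TRAF1 ranged from 0.37 to 1.07 when each library was left out.

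Genes of 14-3-3 proteins, which bind phosphorylated ASK1 and hold it inactive, had log2 fold changes below 0 in 6 of 7, with a median of -0.12. Of all 17090 genes tested, 8772 were below 0. YWHAZ, the largest shift, had 321.5 and 226.9 CPM in erianin, against 363.2 and 336.1 CPM in DMSO, a log2 fold change of -0.35 ± 0.16 (SE). YWHAQ was at -0.26 ± 0.12 and YWHAG at -0.25 ± 0.13 (SE). With the GC and length trend removed these 3 were at -0.08, -0.11 and -0.12, and the median of the 7 was -0.11.

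The enzymes that keep thioredoxin reduced and use it, with the glutaredoxins, had a median of -0.08 over 7 genes. TXNRD1, cytosolic thioredoxin reductase, had 249.9 and 185.3 CPM in erianin, against 277.2 and 250.6 CPM in DMSO, a log2 fold change of -0.28 ± 0.14 (SE) that was -0.08 with the trend removed. TXNRD2, the mitochondrial reductase, was at 0.17 ± 0.11 and PRDX3, a mitochondrial peroxidase that draws on TXN2, at -0.41 ± 0.16 (SE), and with the trend removed they were at 0.01 and -0.24. Other regulators of the ASK1 protein had a median of -0.31 over 14 genes, which was -0.10 with the trend removed and 0.00 without erianin replicate 2. USP9X, a deubiquitinase that stabilises ASK1, had 19 and 13.9 CPM in erianin, against 24.8 and 22.1 CPM in DMSO, a log2 fold change of -0.51 ± 0.18 (SE). RC3H2, a ubiquitin ligase, was at -0.40 ± 0.18 (SE), and with the trend removed USP9X was at -0.17 and RC3H2 at -0.08. AKT1 and AKT2, kinases that phosphorylate ASK1, were at 0.20 ± 0.11 and 0.19 ± 0.11 (SE), with adjusted p of 0.576 and 0.579 (edgeR). Their GC contents were 62.1% and 58.3%, and their values with the trend removed are not given here.

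Downstream, 10 tested genes of MAP kinase kinases and of JNK and p38 kinases had a median of -0.06. MAP2K4, which activates JNK, had 7.14 and 6.23 CPM in erianin, against 9.8 and 8.7 CPM in DMSO, a log2 fold change of -0.47 ± 0.19 (SE). MAPK14, p38 alpha, was at -0.47 ± 0.20, and MAP2K6, a p38 activator at 1.01 CPM or less in each library, at -1.62 ± 0.82 (SE). When each library was left out, MAPK14 ranged from -0.76 to -0.24 and MAP2K6 from -2.26 to -0.45. With the trend removed, MAP2K4 was at -0.23, MAPK14 at -0.32 and MAP2K6 at -1.28. The other kinases at the MAP3K level had a median of -0.23 over 18 genes, which was -0.04 with the trend removed, -0.05 without DMSO replicate 1 and 0.03 without erianin replicate 2. MAP3K4 had the smallest unadjusted p of the pathway genes (0.00559), with 2.92 and 2.7 CPM in erianin, against 5.04 and 5.26 CPM in DMSO. Both erianin libraries were the lower ones, at a log2 fold change of -0.87 ± 0.23 (SE), which was -0.71 with the trend removed and from -0.94 to -0.82 when each library was left out. MAP3K20 was at -0.58 ± 0.16 and MAP3K2 at -0.62 ± 0.24 (SE), and with the trend removed they were at -0.27 and -0.33. Without erianin replicate 1, the pathway genes that passed lay on both sides of 0 in the main fit. MAP3K4, MAP3K20, MAP3K2, YWHAZ, TXNRD1 and USP9X were among those below 0 there. AKT1, AKT2, MAP3K11 and TNFRSF1A were among those above 0. In that fit erianin replicate 2 stands alone for its group.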

How the data were processed

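RNA of 4 SW1990 libraries was analysed, 2 per group. Per the submitters' processing notes, fastp, STAR, StringTie 2.2.1, featureCounts 2.0.1 and build GRCh38 were used, with no role or order given. The sources used here give neither the annotation, nor the strandedness, nor the rule for reads matching several genes. The authors' deposited table of counts, treated as estimated counts, has 107429 rows for 25798 gene IDs, and 14076 IDs have several rows. The planned test had assumed plain counts per gene; it was kept, after summing rows. A second deposited table gives FPKM for the same rows, as named per the file headers. Rows were summed per gene ID. Gene IDs were paired with symbols through a table of names, and positions, lengths and GC content from GENCODE 29 on GRCh38, which held 24725 of the IDs. Coordinates are 1-based.

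Counts were tested with edgeR 4.0.16 (R 4.3.3), TMM factors of 1.01, 0.928, 1.04 and 1.03 (erianin replicates 1 and 2, DMSO replicates 1 and 2), filterByExpr at a minimum count of 10, a design of group only with 2 residual degrees of freedom, and the quasi-likelihood F test. Each standard error was obtained from the log2 fold change and the root of its F statistic. CPM uses TMM-adjusted library sizes. Nothing says that replicates were separate cultures, so p-values reflect only how far these libraries vary, which may be technical variation. The lengths implied by rows used a library total per library, the median over 436 to 475 genes with 1 row, 1 annotated transcript and at least 500 counts. Lengths were matched to GENCODE within 0.5%. Near copies (at least 200 bases at 95% identity) were found with BLAST+ 2.17.0. The trend with GC content and length was fitted per library with natural splines of 5 degrees of freedom and used as an offset. That fit used only genes whose log2 CPM averaged at least 3. DESeq2 1.42.0 and limma 3.58.1 served in alternatives. The test was checked on simulated data made without a trend in GC content, so that check does not cover the trend seen in these libraries. Members and gene lists were chosen with earlier results of these data known. All 9 members are named, with 3 genes per list by smallest p (1 of these is not reported here) and the 3 genes most like MAP3K5. Other genes (such as AKT1, AKT2, MAP3K11 and MAP3K14) were picked with their values in view.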

Additional observations from a re-analysis of the deposited data

How the results depend on the processing

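With 2 libraries per group and from 140 to 192 counts per library for TRAF6, differences well inside the 95% intervals given were not detectable. Over 16 alternatives, 0 of the 9 genes passed in 15, and in those that left out 1 library the number called was 0 to 2, with TXN and TXN2 passing without erianin replicate 1. Of the 70 pathway genes 1 (YWHAZ) passed with the replicate number as a block and 0 with that block and the GC and length offset, and 0 to 22 passed when 1 library was left out. The number of all genes called, 7, was 2 with library totals alone, 21 with DESeq2, 0 with limma-voom (1673 genes at an unadjusted p under 0.05), 334 (1.95% of genes) with the replicate block, 14 with the GC and length offset and replicate block together, 2 with limma on log2(FPKM + 0.1) or log2(FPKM + 1), and 24 to 3166 when 1 library was left out (3166 with erianin replicate 1 left out, 24 with erianin replicate 2, 62 with DMSO replicate 1 and 73 with DMSO replicate 2). The labels do not say that the replicate numbers pair libraries, and same-numbered libraries deviated together with a correlation of 0.222. The block called 66 genes higher and 268 lower, and it changed no call among the 9. The split of 2 higher and 5 lower was 0 and 2 with library totals alone, 4 and 6 with upper-quartile factors, and 0 and 5 with the GC and length offset. When each library was left out, list medians ranged from -0.29 to -0.04 for 14-3-3 genes, from -0.20 to 0.00 for the thioredoxin and glutaredoxin genes, from 0.00 to 0.09 for receptors and adaptors and from -0.26 to 0.05 for the downstream kinases, and YWHAZ from -0.63 to -0.12, TXNRD1 from -0.52 to -0.08, PRDX3 from -0.64 to -0.21 and USP9X from -0.76 to -0.30. Library totals alone moved the median of all genes to -0.11, against -0.01 with TMM.

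TXN2, TRAF2, PPP5C and DAXX kept a log2 fold change above 0 in all 16 alternatives, with ranges of 0.04 to 0.33, 0.02 to 0.28, 0.03 to 0.22 and 0.03 to 0.17. The sign of the other 5 turned in some. MAP3K6 was at -0.08 with library totals alone, -0.11 with the GC and length offset, -0.10 with that offset and the replicate block, -0.17 and -0.13 with limma on log2(FPKM + 0.1) and log2(FPKM + 1), and from -0.05 to 0.08 when 1 library was left out. TXN was at -0.02 with library totals alone and with limma on either FPKM scale, and from -0.09 to 0.23 when 1 library was left out. PGAM5 was at -0.01 with library totals alone, with the GC and length offset, and with that offset and the replicate block. TRAF6 was at 0.13 with the offset, with and without the replicate block. MAP3K5 ran from -0.63 to 0.12 when 1 library was left out. The cause of these turns was not tested. The order of levels had 8 separate pairs of neighbours with any 1 library left out and 7 with CPM per 1000 bases of transcript, where PGAM5 came before PPP5C. In a fit without 1 library, the lone library of its group is assumed to vary like the other group.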
